A study of Mus musculus with 16 samples.

Results

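The genes described here are 10 members of the Notch pathway, which carries signals between touching cells. They were taken by symbol from the deposited count table: the ligands Jag1, Jag2, Dll1 and Dll4, the receptors Notch1, Notch2, Notch3 and Notch4, and the target genes Hes1 and Hey1. Each symbol occurred on 1 row, so 10 of 25054 rows (24421 symbols) were followed across 16 libraries, and all 10 passed the filter for testing, a mean of at least 1 CPM (counts per 1000000 counts of a library).

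RNA came from lung and liver of newborn mice of the Man1a2tm1.1Ahe line, which lacks exon 2 of Man1a2, a mannosidase of the N-glycan pathway, and was bred with C57BL/6J, the strain background in the labels. Parents, heterozygous for the deletion, drank N-acetyl cysteine (NAC, an antioxidant that restores glutathione; up to 1 g/kg) or water as placebo from 1 week before breeding until delivery. There were 4 groups of pups: wild type (WT) that lived, heterozygotes that lived, heterozygotes that died and nulls, all of which died. Live pups were killed 24 h after birth and dead pups were taken at death, so death and age cannot be told apart. RNA of 3 experiments was pooled per library, and of 2 for dead heterozygous pups, which gave 1 library per pup group, treatment and labelled tissue. Spread was therefore estimated over pooled libraries of different pup groups, and no labelled group has a replicate of its own.

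Notch receptors are cleaved when a ligand on a neighbouring cell pulls on them. The released intracellular domain enters the nucleus, joins the DNA-binding protein RBPJ and switches on targets such as the Hes and Hey repressors. In lung the pathway is known for choosing between ciliated and secretory airway cells and for shaping vessels and their mural cells, and in liver for the formation of bile ducts.

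The tissue labels were checked first, because every level below depends on them. Libraries were grouped by their content of 2 marker genes that are not members, Sftpc (surfactant protein C, made by alveolar type 2 cells) and Alb (albumin, made by hepatocytes). Lung-content libraries had at least 1000 CPM of Sftpc and under 1000 of Alb, and liver-content libraries at least 50000 CPM of Alb. By this rule 7 libraries were lung-content, 8 were liver-content and 1 was mixed, and in 8 of the 16 the content was that of the other tissue than the label (4 labelled lung, 4 labelled liver). Lung-content libraries were those labelled lung for live WT with NAC, live heterozygous with NAC and dead heterozygous with placebo. The others were those labelled liver for live WT, live heterozygous and dead null with placebo and for dead heterozygous with NAC. Sftpc ranged from 4446 to 11758 CPM in lung-content and from 0.062 to 3.10 CPM in liver-content libraries. Alb ranged from 10.5 to 135 CPM and from 51003 to 101254 CPM. The library nearest a limit of this rule was the dead null NAC library labelled liver, at 51003 CPM of Alb. The mixed library, dead null with placebo labelled lung, held 5553 CPM of Sftpc and 9280 CPM of Alb. Both libraries labelled dead null with NAC were liver-content, so no lung-content library is labelled dead null with NAC. Pup group and treatment were taken from the labels and could not be checked in the data. Which label of a library is at fault where tissue and content differ was not tested, so every NAC, death and genotype value below holds only if those other labels are right. Depth ranged from 7236906 to 16107764 counts a library, and the ribosomal symbol Rn45s took 0.845 to 26.2% of them. Man1a2 stood at 70.0 CPM in the lung-content dead null library, against 41.0 to 121 CPM over the 7, but counts per gene do not separate exon 2. No 2 libraries of a content group agreed within sampling noise (chi-square per degree of freedom at least 12.8 in every pair).

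Sequences at the start sites of 3 members are shown because the results below turn on them: Jag2 had the largest difference between the tissues, Notch3 the largest of the receptors, and Notch2 the largest with NAC. Each window holds 250 bases before and 50 after a RefSeq start (GRCm38.p6), 5′ to 3′ on the gene's strand. Capitals mark the N box CACNAG on either strand, a motif that Hes proteins can bind.
Jag2, chr12:112929446-112929745, minus strand: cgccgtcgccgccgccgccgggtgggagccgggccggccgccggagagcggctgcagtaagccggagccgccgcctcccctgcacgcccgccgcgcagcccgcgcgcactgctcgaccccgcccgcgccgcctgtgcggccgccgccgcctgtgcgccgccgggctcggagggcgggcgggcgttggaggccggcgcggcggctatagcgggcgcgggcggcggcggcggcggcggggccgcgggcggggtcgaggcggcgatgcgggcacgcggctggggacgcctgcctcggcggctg
Notch3, chr17:32166841-32167140, minus strand: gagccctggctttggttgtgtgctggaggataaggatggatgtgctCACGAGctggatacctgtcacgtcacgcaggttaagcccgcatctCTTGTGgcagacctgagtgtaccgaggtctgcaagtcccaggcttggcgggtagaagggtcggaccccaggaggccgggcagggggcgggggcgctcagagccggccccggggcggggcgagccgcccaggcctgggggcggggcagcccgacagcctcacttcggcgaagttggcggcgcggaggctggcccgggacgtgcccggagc
Notch2, chr3:98013288-98013587, plus strand: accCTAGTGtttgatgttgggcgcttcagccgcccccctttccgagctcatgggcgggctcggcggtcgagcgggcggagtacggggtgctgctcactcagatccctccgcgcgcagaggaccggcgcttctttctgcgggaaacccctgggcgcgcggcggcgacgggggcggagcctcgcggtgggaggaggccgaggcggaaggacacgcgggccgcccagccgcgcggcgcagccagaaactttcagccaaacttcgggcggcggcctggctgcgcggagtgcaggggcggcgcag

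Windows were found for 8 of the 10 members, with 2 for Dll1, and not for Hes1 and Hey1. The Jag2 window was 86.0% G or C with 63 CG pairs, and the Notch4 window 58.3% with 5, against a median of 52.7% over all windows, so the members did not share a base composition. An N box stood in 5 of the 9 windows, against 42.5% of 32851 windows of the same length. Counted from the start site, those of Notch3 began at -204 and -159 and that of Notch2 at -247. None of the 9 held the RBPJ motif TGGGAA (25.6% of all windows), its longer form GTGGGAA (6.38%), which overlaps it, or the E box CACGTG (7.15%). A match in this search is a run of letters and not a bound site, and both strands were searched for each motif.

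By the GENCODE M21 annotation of GRCm38, the receptors lie at chr2:26457903-26516663 (Notch1, minus strand), chr3:98013527-98150361 (Notch2, plus), chr17:32120820-32166852 (Notch3, minus) and chr17:34564268-34588503 (Notch4, plus). The ligands lie at chr2:137081456-137116644 (Jag1, minus), chr12:112907819-112929776 (Jag2, minus), chr17:15367354-15376872 (Dll1, minus) and chr2:119325784-119335962 (Dll4, plus), and the targets at chr16:30064384-30067796 (Hes1, plus) and chr3:8663359-8667256 (Hey1, minus). The Jag2 and Notch1 windows, and the Dll1 window at chr17:15375774-15376073, lie wholly inside these spans. Their bases before the RefSeq start are therefore within the gene as annotated here. Counts cover whole genes. Notch1, Notch3, Dll1 and Dll4 overlap annotated genes on the other strand and Notch2 one on its own strand. The library kit kept strand (TruSeq stranded mRNA), but whether the counting used it is not stated, so values of these 5 members may hold reads of the overlaps.

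The first comparison asked how the pathway differed between lung and liver content. All 10 members were higher in lung-content libraries and none was lower (edgeR quasi-likelihood test, Benjamini-Hochberg adjusted p under 0.05), while 34.9% of all 14175 genes passed as higher and 39.2% as lower. The members' median log2 difference was 2.46, against -0.09 for all genes. With scaling by library size alone the median of all genes moved to 0.56 and the higher share of calls from 47.1 to 69.9%, and all 10 members still passed as higher. In 8 of 10 members every lung-content library was above every liver-content one, which held for 23.6% of all genes. RNA was bulk, so fewer cells of a type and less RNA per cell cannot be told apart here or below.

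Among the ligands, which sit on the sending cell, Jag2 differed most. Its level, in CPM scaled by TMM, ranged from 31.1 to 89.4 (median 63.6) in the 7 lung-content libraries and from 0.794 to 2.77 (median 1.24) in the 8 liver-content ones. The log2 difference was 5.39 ± 0.30 (SE; adjusted p = 1.9e-09 by edgeR), or 41.9-fold. Jag1, the ligand tied to bile duct formation, ranged from 34.2 to 44.3 CPM (median 37.1) in lung content and from 4.14 to 7.43 (median 6.66) in liver content. It was the steadiest member in lung content, where its highest library was 1.29 times its lowest. Its log2 difference was 2.71 ± 0.14 (adjusted p = 5.66e-10, edgeR).

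Dll4, a ligand of endothelial tip cells, ranged from 22.8 to 59.5 CPM (median 35.5) in lung content and from 5.15 to 9.31 (median 7.98) in liver content, a log2 difference of 2.22 ± 0.22. Dll1, the ligand with the lowest level in lung content, ranged from 8.98 to 23.7 CPM (median 13.6) there and from 3.44 to 15.5 (median 5.32) in liver content. The ranges overlapped through 1 library, dead null with NAC labelled lung, in which Dll1 stood at 15.5 CPM, and the log2 difference was 1.33 ± 0.23 (adjusted p = 0.000146, edgeR).

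Of the receptors, Notch3, the receptor of mural cells around vessels, was the most lung-weighted. It ranged from 84.7 to 150 CPM (median 103) in lung content and from 5.17 to 8.79 (median 6.37) in liver content. The log2 difference was 4.10 ± 0.16 (adjusted p = 5.08e-11, edgeR), the smallest p of the members. Notch4, an endothelial receptor, ranged from 50.7 to 86.1 CPM (median 66.6) in lung content and from 3.37 to 8.70 (median 7.45) in liver content, a log2 difference of 3.21 ± 0.19.

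Notch1 and Notch2, the receptors in widest use among tissues, differed less. Notch1 ranged from 89.8 to 222 CPM (median 126) in lung content and from 23.6 to 61.2 (median 30.7) in liver content, a log2 difference of 2.11 ± 0.20. Notch2 ranged from 79.2 to 279 CPM (median 142) in lung content and from 37.0 to 72.5 (median 51.1) in liver content, a log2 difference of 1.50 ± 0.24 (adjusted p = 5.18e-05, edgeR). Neither receptor's groups overlapped.

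The targets split. Hey1, a repressor downstream of Notch in vessels, ranged from 30.1 to 73.0 CPM (median 40.5) in lung content and from 0.955 to 2.22 (median 1.76) in liver content, a log2 difference of 4.76 ± 0.25, or 27.1-fold. Hes1, a repressor in many progenitor cells, ranged from 24.8 to 44.6 CPM (median 38.4) in lung content and from 5.89 to 40.3 (median 14.8) in liver content. Its groups overlapped, its liver-content libraries spread 6.85-fold, and its log2 difference of 1.13 ± 0.35 was the smallest of the 10 (adjusted p = 0.0092, edgeR).

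**Figure D1:**
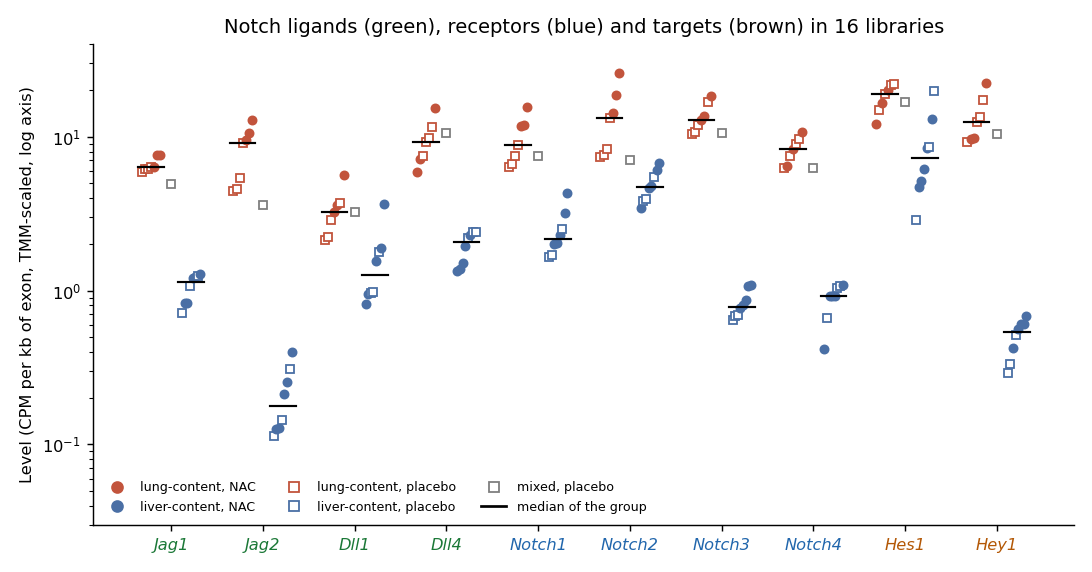
Level of each member per kilobase of exon (log axis) in 7 lung-content, 8 liver-content and 1 mixed library, 1 point a library, filled for NAC and open for placebo, with bars at group medians. Lung-content points lie above liver-content ones without overlap except in Dll1 and Hes1, and Jag2 falls to a median of 0.179 CPM per kb in liver content.

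**Figure D2:**
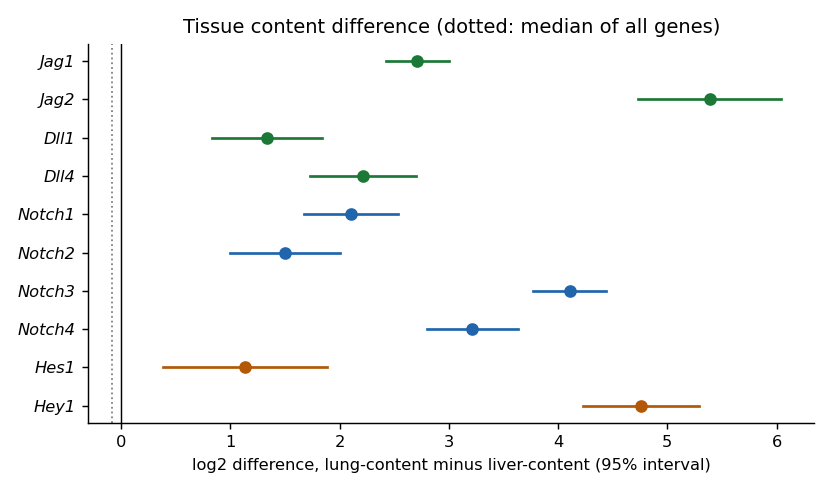
log2 difference between lung-content and liver-content libraries for each member, with its 95% interval. All 10 lie above 0, from 1.13 in Hes1 to 5.39 in Jag2, and the dotted line is the median of all genes at -0.09.

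Levels were set between members only per kilobase of exon (CPM per kb). Over all 7 lung-content libraries Hes1 had the highest median, 18.9 CPM per kb, followed by Notch2 (13.1), Notch3 (12.8) and Hey1 (12.4). Dll4, Jag2, Notch1 and Notch4 lay between 9.21 and 8.26, Jag1 at 6.36 and Dll1 at 3.23. Ranges of neighbours in this order overlapped, apart from Jag1 and Dll1. The order differed between treatments in lung content, with Notch2 first in NAC libraries (median 18.6 CPM per kb, Hes1 16.7) and Hes1 first in placebo libraries (20.2, Notch2 7.93). In liver content Hes1 (7.26 CPM per kb) and Notch2 (4.74) led again, Notch1 (2.16) and Dll4 (2.07) came next, and Hey1 (0.538) and Jag2 (0.179) were last, with every pair of neighbours overlapping. The 4 receptors summed to 30.9 to 63.5 CPM per kb in lung content and to 6.88 to 12.3 in liver content. Notch2 made up 22.6 to 40.8% of that sum in lung content and 48.3 to 56.7% in liver content, so these ranges did not overlap. Notch3 went the other way, with 21.6 to 34.7% in lung content and 6.58 to 12.4% in liver content.

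Markers of the cell types that carry these genes moved with the tissue, and their part in the members' differences was not tested. The 9 endothelial markers summed to 1639 to 2145 CPM in lung content and to 197 to 328 CPM in liver content, and 9 of 9 passed as higher. The 6 mural and smooth muscle markers summed to 480 to 657 CPM and to 47.9 to 159 CPM, with 6 of 6 higher. All airway (4), alveolar type 1 (4) and alveolar type 2 (5) markers, and the 3 heart muscle markers tested of 4, were higher in lung content. All hepatocyte (6), erythroid (6) and macrophage (4) markers, and the 2 lymphocyte markers tested of 4, were lower. Sftpc is among the alveolar type 2 markers and Alb among the hepatocyte markers, so the calls of these genes follow from the grouping rule. Of 6 bile duct markers, 4 were higher and 1 lower. No list had a marker at 0 in every lung-content library or in every liver-content one.

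Other genes of the pathway were followed by step, from a list of 44 of which 38 passed the filter. In lung against liver content 29 of the 38 were higher and 3 lower, with a median log2 difference of 0.98. Of all genes 34.9% passed as higher and 39.2% as lower, and the counts by step below are to be read against these shares. In the nuclear complex 6 of 6 were higher, led by the coactivators Maml2 (2.94 ± 0.15) and Maml3 (2.52 ± 0.17) on the log2 scale, and Rbpj itself was 1.16 ± 0.16 higher. Trafficking and turnover genes were higher in 11 of 12, led by the ubiquitin ligase Neurl1b (3.03 ± 0.21), and Itch did not pass (0.34 ± 0.15). Of 5 sugar transferases that modify the receptors, 4 were higher, led by the Fringe gene Mfng (1.67 ± 0.18), and Pofut1 did not pass (-0.28 ± 0.20). The cleavage enzymes were mixed, with 3 of 9 higher and 2 lower. Adam17, a sheddase, was 1.05 ± 0.14 higher, while the γ-secretase subunits Psen2 and Psenen fell by 1.56 (SE 0.12) and 0.47 (SE 0.12). Adam10, the protease that first cuts the ligand-bound receptor, stood at 128 to 159 CPM in lung content and 86.0 to 214 in liver content, a log2 difference of -0.01 ± 0.16 that did not pass. Of the remaining targets, 3 of 4 were higher (Heyl 3.36 ± 0.27, Hey2 2.72 ± 0.34, Nrarp 2.12 ± 0.25) and Hes6 fell by 0.51 (SE 0.15). Both non-canonical ligands tested were higher, Dlk2 by 5.70 ± 0.56 and Dlk1 by 1.78 ± 0.48, with Dlk2 at 0 in some liver-content libraries.

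**Figure D3:**
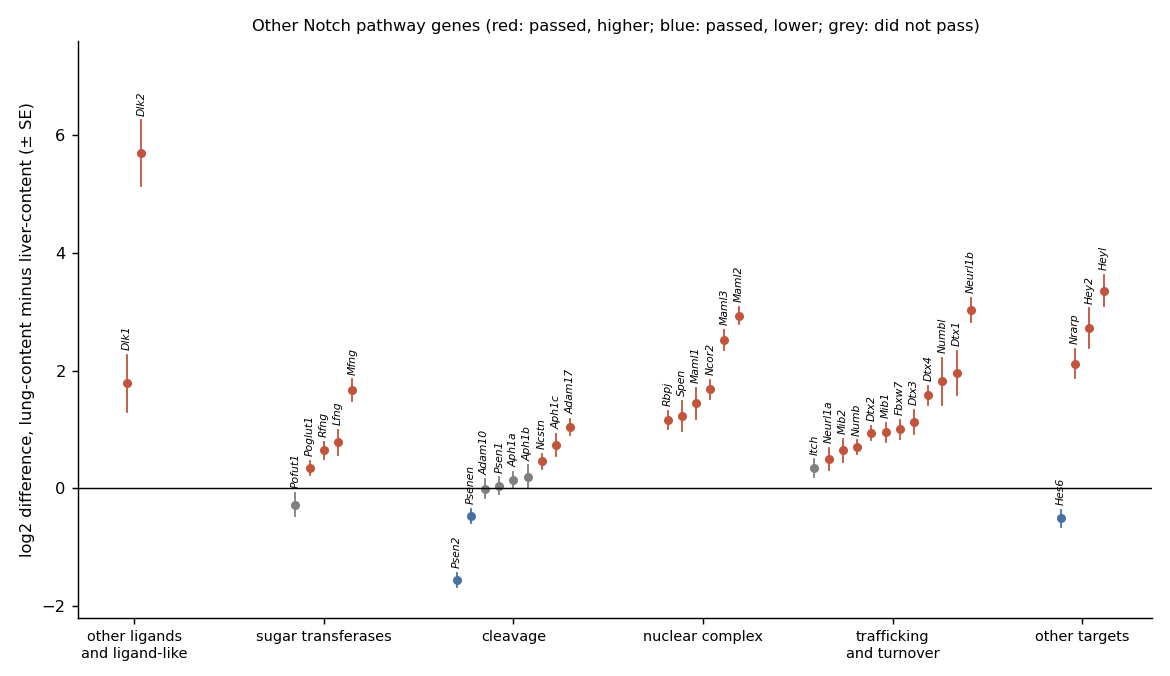
log2 difference between lung-content and liver-content libraries (± SE) for 38 other pathway genes, grouped by step. The 6 nuclear complex genes all passed as higher, and the 9 cleavage genes fell on both sides of 0.

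The study's own comparison set the NAC library against the placebo library of each pup group and labelled tissue. It is 1 library against 1, with no replicate check. The study called genes by an exact test with an assumed spread and a log2 change of at least 1 in size. Here only that fold threshold is kept and log2 ratios are given with no test, so the counts below are not the study's calls. In all 8 pairs the contents of the NAC and the placebo library differed. Where the NAC library was lung-content, 29 of 30 member ratios were above 0, and where it was liver-content 49 of 50 were below 0. Of the 80 ratios 70 were at least 1 in size, each higher in the lung-content or mixed library of its pair. Among all genes the threshold was passed both ways, as with 3849 higher and 3998 lower of 14020 in live WT labelled lung. Shares of all genes below count only the direction named, and none was computed for the signs.

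In the pairs labelled lung, 9 members were higher by at least 1 in live WT pups (27.5% of all genes) and 9 in live heterozygous pups (28.4%). Jag2 led both, at 6.51 and 6.45, and Hes1 was the lowest, at 0.96 and -0.70. In dead heterozygous pups 9 members were lower by at least 1 (25.9%), with Hey1 at -4.92 and Notch2 at -0.66. In dead null pups, whose placebo library is the mixed one, 7 were lower (24.9%), with Hey1 at -4.09 and Dll1 at 0.18.

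In the pairs labelled liver, 9 members were lower by at least 1 in live WT (25.6% of all genes), 8 in live heterozygous (25.3%) and 9 in dead null pups (26.7%). Jag2 was the lowest in each, at -4.67, -5.11 and -6.17. In dead heterozygous pups all 10 were higher by at least 1 (26.1%), from 1.37 in Notch2 to 6.24 in Hey1. With scaling by library size alone, 8 to 10 members per pair passed 1 in the direction named for that pair. In that same direction 33.0 to 51.5% of all genes passed. Dll1 in the dead null pair labelled lung turned from 0.18 to -0.51. Sign followed content in both labelled tissues, and treatment and content cannot be told apart in any of these pairs.

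**Figure D4:**
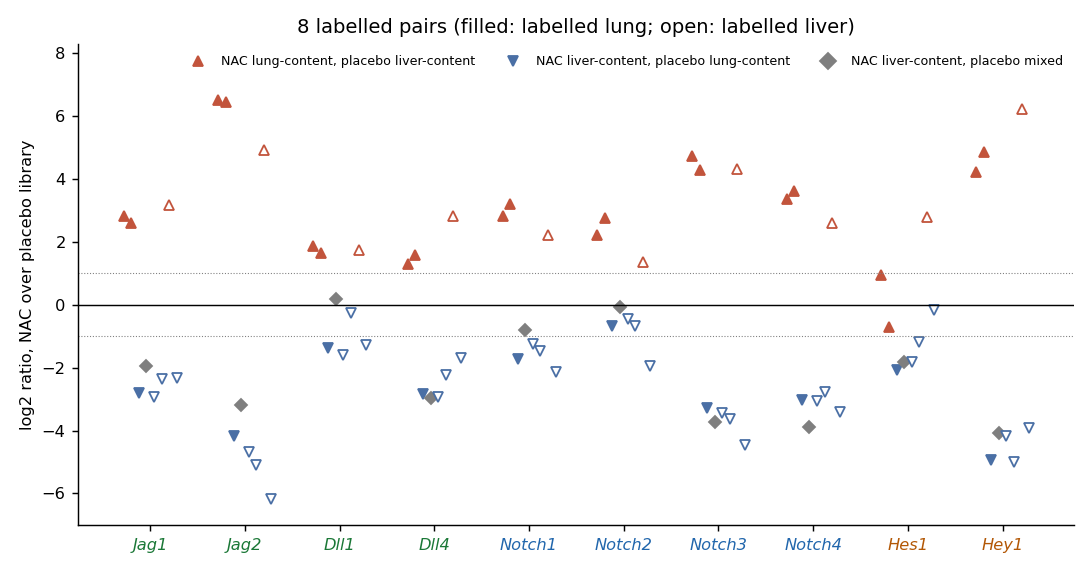
log2 ratio of the NAC to the placebo library for each member in the 8 labelled pairs, filled for labelled lung and open for labelled liver, with colour and shape for the content of the 2 libraries. Upward triangles (NAC library lung-content) lie above 0 except Hes1 at -0.70, and the others lie below 0 except Dll1 at 0.18, which is -0.51 with scaling by library size alone.

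NAC was then compared with placebo among libraries of the same content. In lung content, 3 NAC libraries (live WT, live heterozygous, dead heterozygous) were set against placebo libraries with a mean for each pup group. The dead null placebo library has no NAC partner and adds nothing to the estimate. No member passed (edgeR; 0 of 10), and 4, all higher, had an unadjusted p under 0.05, while 13.2% of all genes were higher at that p. After adjustment 1.65% of all genes passed as higher and 0.959% as lower. The members' median log2 difference was 0.32, against -0.04 for all genes. With scaling by library size alone the median of all genes was -0.31, the higher share of calls went from 63.2 to 31.1%, and Notch4 and Jag1 changed sign.

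Notch2 had the largest value. It stood at 201, 279 and 153 CPM with NAC in live WT, live heterozygous and dead heterozygous pups, and at 89.3, 81.8 and 79.2 CPM with placebo. The dead null library labelled placebo was the highest of its group at 142 CPM, nearer to the lowest NAC library (153) than to the other placebo ones. The log2 difference was 1.30 ± 0.29 (adjusted p = 0.0522, edgeR).

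Jag2 stood at 73.3, 89.4 and 66.2 CPM with NAC in the same order, and at 37.8, 31.1 and 31.8 CPM with placebo. Dead null with placebo reached 63.6 CPM, just under the lowest NAC library. The log2 difference was 1.18 ± 0.31 (adjusted p = 0.075, edgeR).

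Notch1 stood at 169, 222 and 168 CPM with NAC, and at 107, 89.8 and 94.8 CPM with placebo, with dead null at 126. Its log2 difference was 0.93 ± 0.32 (adjusted p = 0.121, edgeR). Notch1, Notch2, Jag1 and Jag2 were the 4 members whose NAC and placebo libraries did not overlap, all higher with NAC, as were 14.1% of all genes. Jag1's NAC libraries, at 37.1 to 44.3 CPM, began just above its placebo libraries at 34.2 to 37.1, and its log2 difference was 0.22 ± 0.17.

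Dll1 was higher in all 3 matched pup groups, at 15.3, 23.7 and 13.6 CPM with NAC against 12.1, 9.45 and 8.98, with a log2 difference of 0.75 ± 0.34 (adjusted p = 0.194, edgeR). Notch3 was higher in all 3 as well, by 0.42 ± 0.16 (adjusted p = 0.14, edgeR). Notch4 differed by 0.14 ± 0.27. Hes1 was lower in all 3 pup groups, at 33.9, 24.8 and 41.0 CPM against 43.9, 38.4 and 44.6, a log2 difference of -0.37 ± 0.42 (adjusted p = 0.589, edgeR). Hey1 (-0.15 ± 0.21) and Dll4 (-0.22 ± 0.32) were lower in live WT and live heterozygous and higher in dead heterozygous pups.

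These calls depended on the libraries fitted, and leaving out 1 library gave 0 to 4 members and 1 to 2908 genes. Among those fits, members passed only without 1 of the 2 dead null NAC libraries. Both are liver-content and enter only through the shared estimate of spread. Without the one labelled lung, 4 members passed (Notch2 with an adjusted p of 0.0076, Jag2 0.0069, Notch1 0.0238 and Dll1 0.0473, edgeR), and 2908 genes in all. Without the one labelled liver the same 4 passed, and 2902 genes. These 2 libraries differed from each other with a chi-square of 176 per degree of freedom, in a range of 17.2 to 226 over liver-content pairs. The 7 lung-content libraries were also fitted alone, an alternative added after the data were seen. The same 4 members passed there, among 3552 of 13990 genes, with adjusted p of 0.0026 for Notch2 and 0.0383 for Dll1 (edgeR). DESeq2 passed Notch2, Jag2 and Notch1, among 1467 of 14175 genes. Notch2 lay between 1.30 and 1.31 in all of these fits. Where libraries were left out, this closeness follows from the design, since those libraries add nothing to the NAC estimate. Leaving out each library in turn, Notch2 ranged from 1.06 to 1.47 and Jag2 from 1.01 to 1.29 on the log2 scale. Notch1 ranged from 0.74 to 1.07 and Dll1 from 0.47 to 0.96.

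The markers of other cell types overlapped between treatments in lung content in all lists but lymphocyte, and their part in the members' values was not tested. The summed endothelial markers ranged from 1989 to 2145 CPM with NAC and from 1639 to 2037 with placebo, and 0 of 9 passed. Alveolar type 2 markers ranged from 6574 to 12413 CPM and from 9348 to 10864, with 0 of 5 passing. Mural markers ranged from 480 to 595 CPM and from 517 to 657, with 1 of 6 higher. Bile duct markers, an epithelial list that lung also expresses, ranged from 578 to 699 CPM and from 417 to 804, with 1 of 6 passing as lower. Their median log2 difference was 0.69, with 5 of 6 above 0. Medians were also far from 0 for hepatocyte markers (0.95 on the log2 scale, 5 of 6 above 0, median sums 85.1 and 49.1 CPM). Erythroid markers had 0.65 (5 of 6, sums of 5132 to 8503 CPM against 3320 to 8403). Macrophage markers had -0.57 (1 of 4, 14.6 to 40.5 against 25.8 to 47.8). Lymphocyte markers had -1.15 (0 of 2, 1.39 to 3.27 against 3.31 to 6.42). No gene of the hepatocyte, erythroid, macrophage and lymphocyte lists passed. Rn45s took 8.16 to 26.2% of counts with NAC and 4.05 to 19.7% with placebo. Genes with over 8000 bases of exon had a median log2 difference of 0.10, and those of 4000 to 8000 bases -0.01. Those of 2000 to 4000 bases had -0.12 and those under 2000 bases -0.10. Notch1, Notch2, Notch3 and Notch4 have 14232, 10782, 8089 and 8061 bases, and Jag2, Jag1 and Dll1 6965, 5827 and 4219. Dll4, Hey1 and Hes1 have 3852, 3265 and 2037. The part of gene length in the members' values was not tested.

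Of the 38 other pathway genes, 1 passed with NAC in lung content, where 1.65% of all genes passed as higher and 0.959% as lower. This was Dlk1, a non-canonical ligand of fetal tissues, 3.22 ± 0.55 higher on the log2 scale (adjusted p = 0.0281, edgeR). It ranged from 70.0 to 1231 CPM over the 7 lung-content libraries and was not followed on leaving out a library. The nuclear complex had a median of 0.60 with 0 of 6 passing, and the sugar transferases a median of -0.21 with 0 of 5. All 38 together had a median of 0.18.

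**Figure D5:**
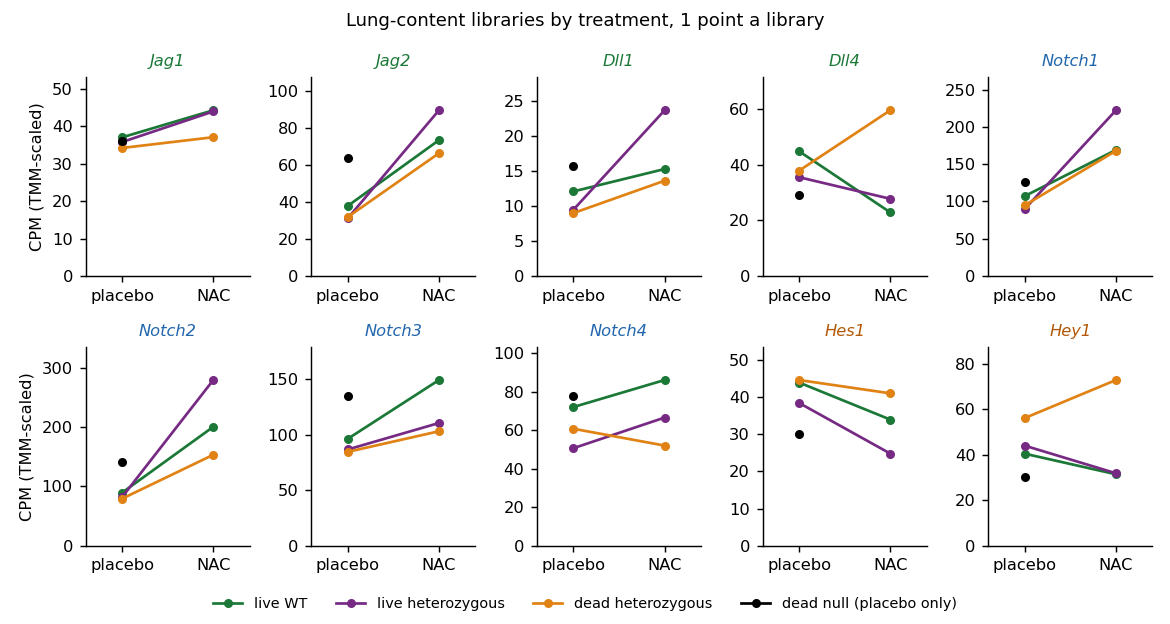
Level of each member (TMM-scaled CPM, axes from 0) in the 7 lung-content libraries, with lines joining placebo to NAC within a pup group and dead null shown for placebo only. Notch1, Notch2, Jag1, Jag2, Dll1 and Notch3 are higher with NAC along all 3 lines, Hes1 is lower along all 3, and the dead null placebo library is the highest placebo library for Notch2 at 142 CPM.

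In liver content the estimate rests on 3 matched pup groups, since dead null has only NAC libraries there and these 2 add nothing to it. No member passed (edgeR; 0 of 10, with 1 higher at an unadjusted p under 0.05, as were 4.78% of all genes), and no gene passed in all (0.0%; 1049 at an unadjusted p under 0.05, and 54 by DESeq2, none a member). That 1 member was Notch3, at 8.79, 7.04 and 8.71 CPM with NAC against 5.56, 5.59 and 5.17 with placebo in live WT, live heterozygous and dead heterozygous pups. Its 2 dead null NAC libraries stood at 6.54 and 6.20 CPM. The 5 NAC libraries did not overlap the 3 placebo ones, as in 1.14% of all genes, and the log2 difference was 0.58 ± 0.17 (adjusted p = 0.545, edgeR). Beside it, mural markers summed to 68.9 to 159 CPM with NAC and 47.9 to 80.1 with placebo (6 of 6 above 0, median log2 difference 1.06), and erythroid markers to 5973 to 32186 and 5879 to 29950 CPM (6 of 6 above 0, median 1.07). None of either list passed, and their part in the Notch3 value was not tested. Hey1 was higher in all 3 matched pup groups (0.56 ± 0.28) and Dll4 lower in all 3 (-0.55 ± 0.33), both overlapping, and neither passed.

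The difference between the 2 contents in the response to NAC was tested as an interaction, and 0 of 10 members passed, with 1, Notch2, higher at an unadjusted p under 0.05 (0.0847% of all genes passed and 8.97% were higher at that p). For Notch2 it was 1.06 ± 0.40 (adjusted p = 0.24, edgeR), for Jag2 1.08 ± 0.54 and for Hey1 -0.71 ± 0.35. The 95% intervals reached from -1.49 to 2.30 over the 10 members.

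Dead and live pups were compared within each content, with 3 against 4 libraries in lung and 4 against 4 in liver. The dead include nulls and the live include WT, so genotype differs along with death. In lung content 0 of 10 members passed, and none had an unadjusted p under 0.05 (0.0% of all genes passed; 559, or 3.94%, had an unadjusted p under 0.05, and 45 passed by DESeq2, none a member). Values ran from -0.11 ± 0.17 in Jag1 to 0.32 ± 0.31 in Jag2 on the log2 scale, and the 95% intervals from -0.98 to 1.02. Among heterozygotes alone Jag2 was -0.21 in lung content. In every member the dead and live libraries overlapped.

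In liver content 0 of 10 passed with dead against live pups (0.00705% of all genes passed, and 1161, or 8.19%, had an unadjusted p under 0.05, with no member among them), and DESeq2 passed 58 genes and no member. Jag2 had the largest value at 0.82 ± 0.38 (adjusted p = 0.599, edgeR) on levels of 0.794 to 2.77 CPM, and Hes1 the lowest at -0.62 ± 0.41. Hes1 was at its highest in the live heterozygous placebo library labelled lung, at 40.3 CPM, and at its lowest, 5.89 CPM, in that of dead heterozygous pups with placebo labelled liver. Leaving out the dead null NAC library labelled liver brought Jag2 past the threshold (1.15, adjusted p = 0.0373, edgeR), together with 1675 genes in place of 1. The difference between the contents passed for none of the 10 (0.00705% of all genes), with Jag2 at -0.50 ± 0.49 and Hes1 at 0.58 ± 0.58.

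Heterozygous and WT pups, which carry 1 and no copy of the deletion, were compared among live pups with 2 libraries against 2 in each content. In lung content 0 of 10 members passed (0.0% of all genes; 190, or 1.34%, at an unadjusted p under 0.05 with no member among them, and 29 by DESeq2, none a member). Notch4 was lowest at -0.44 ± 0.33 (50.7 and 66.6 CPM against 72.0 and 86.1, without overlap, as in 8.71% of all genes), and Notch2 highest at 0.19 ± 0.35. In liver content 0 of 10 passed (0.0%; 405, or 2.86%, at an unadjusted p under 0.05 with no member among them, and 1 by DESeq2). Dll1 stood at 7.93 and 7.52 CPM in heterozygous against 3.98 and 4.13 in WT libraries, 0.93 ± 0.43 (adjusted p = 0.989, edgeR). In liver content 2 members had both heterozygous libraries above both WT ones (14.6% of all genes) and 2 had them below (13.5%). Hey1 was one of the latter, at 1.38 and 1.09 against 2.22 and 1.67 CPM, -0.65 ± 0.34. The 95% intervals over the 10 members reached from -1.47 to 1.08 in lung content and from -1.51 to 2.08 in liver content.

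The genes whose log2(CPM + 1) followed each member most closely over the 16 libraries are given as a description, since tissue content sets most of this likeness. For Notch3 these were Scnn1a and Cacna1d (Pearson r 0.997 and 0.996), for Jag2 Spon1 and Ttc39b (0.996 for both), for Hey1 Kcne2 and Sftpa1 (0.993 and 0.992) and for Jag1 Lamb3 and Cldn5 (0.993 and 0.992). Notch4 was closest to Apc and Prex2 (0.993 and 0.991), Notch1 to Csnk1e and Vasn (0.987 and 0.986), Notch2 to Adamts14 and Brd1 (0.98 and 0.976) and Dll4 to Slc16a9 and Dock4 (0.978 and 0.976). Hes1 (BC029722 and Ccnd1, 0.954 and 0.95) and Dll1 (Dsp and Smad2, 0.916 and 0.906) had the loosest partners. After each content group's mean was subtracted, the closest gene was Csrnp1 for Notch1 (0.973), Foxp1 for Notch2 (0.972), Mctp2 for Jag2 (0.969) and Ostc for Hes1 (0.955), and for the other 6 r lay between 0.87 and 0.903.

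Among themselves, over the 7 lung-content libraries, Notch1, Notch2, Jag2 and Dll1 followed each other (Pearson r from 0.907 to 0.974 on the log2 scale), while Hes1 ran against all 4 (r from -0.873 to -0.695). Dll4 and Hey1 formed another pair (r = 0.869). These are 7 libraries that differ in treatment and depth, and the correlations carry no test.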

How the data were processed

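RNA of newborn lung and liver was sequenced after pooling. Per the study's methods, the authors trimmed adapters, aligned reads to Mouse.B38 (mm10 in the submitters' processing notes, which also name R 4.0.3 and edgeR 3.30.3) with the Omicsoft aligner, and deposited estimated counts per gene symbol, not normalized. Libraries were made with a stranded kit (TruSeq stranded mRNA). Whether counting used strand, the annotation release and how reads were divided are not given in the sources used here. Of the deposited values 6.50 to 8.24% per library were not whole and were rounded, in place of the whole counts the design assumed. Library sizes were 7236906 to 16107764, and Rn45s was kept in them.

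The 14175 genes whose mean reached 1 CPM were scaled by TMM and tested with edgeR 4.0.16 (quasi-likelihood, R 4.3.3), over the 15 libraries that were not mixed. The tissue difference was fitted with pup group and treatment as covariates. The other differences came from a fit with a mean for each pup group in each content and a treatment effect in each content. SE is the log2 difference divided by the square root of the test's F. Benjamini-Hochberg adjusted p under 0.05 was called. DESeq2 1.42.0, other scalings, no filter, other content rules and leaving out each library were alternatives. Python 3.11.15, pandas 2.3.3 and matplotlib 3.10.9 made tables and figures. Log2 ratios of single labelled pairs used a prior count of 0.125. Likeness was computed over genes averaging 10 CPM or more. On simulated counts of 14175 genes, 200 were changed 4-fold. For tissue content and NAC in lung content 197 and 173 were recovered, with 7 and 7 other genes called. For dead against live and heterozygous against WT in lung content these were 171 and 148, with 9 and 11. The simulation had no other tissue or pup differences, and changed genes came from those with higher counts. Every NAC, death and genotype value of the members was under 4-fold, so these shares are not the power for them.

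The members, marker lists and pathway list were chosen with earlier results of these data known. All members are named. Of the other pathway genes the rule names the 3 with the largest passing change each way (Dlk2, Heyl and Neurl1b higher, Psen2, Hes6 and Psenen lower in lung content); the rest were named after their values were seen. Of the pathway list Dll3, Dner, Hes2, Hes3, Hes5 and Hes7 did not pass the filter. Where the labels give no further detail, p-values measure the spread between these pooled libraries.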

Additional observations from a re-analysis of the deposited data

How the results depend on the processing

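The tissue difference kept its 10 members under the other scalings, filters and DESeq2 and when any library was left out (10 members, 10054 to 10750 genes). With tissue as labelled, 0 members and 0 genes passed, and Jag2 (-0.017), Hes1 (-0.066), Dll4 (-0.26) and Hey1 (-0.052) changed sign on the log2 scale.

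For NAC in lung content (0 members, 370 genes), 1 member passed with no filter (488 of 19406 genes) and 3 with DESeq2 (1467 genes). In lung content fitted alone 4 passed (3552 genes), and without both dead null NAC libraries 4 (2926 genes). With the mixed library as lung content 10 genes passed and without pup group in the model 50, where Hey1 was 0.091. Scaling by library size put Notch4 at -0.14 and Jag1 at -0.054. Leaving out 1 library gave 0 to 4 members and 1 to 2908 genes, Dll4 from -0.67 to 0.16 and Hey1 from -0.42 to 0.0072, and every library but the dead null placebo one labelled liver moved the gene count by over 1.5 times. Fitting lung content alone, leaving out both dead null NAC libraries and leaving out Rn45s were chosen after seeing the data.

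For NAC in liver content (0 genes), DESeq2 passed 54, the fit without both dead null NAC libraries 11, and those without 1 library 0 to 2. For the difference between contents in NAC (12 genes), relative log expression gave 23, no filter 51, DESeq2 546, the mixed library as lung content 0, the fit without both dead null NAC libraries 604, and leaving out 1 library 0 to 600. For dead against live, lung content (0 genes) gave 45 by DESeq2 and 7 fitted alone, with Jag2 at -0.21 for heterozygotes alone and from -0.21 to 0.44 on leaving out 1 library. Liver content (1 gene) gave 2 with no filter, 58 by DESeq2, 0 with the mixed library as lung content, and 0 to 1 members and 0 to 1675 genes on leaving out 1 library. Their difference (1 gene) gave 10 by DESeq2 and 0 with relative log expression, the mixed library as lung content, heterozygotes alone or Rn45s left out, and 0 to 1 on leaving out 1 library, with Jag2 from -1.03 to 0.0015. For heterozygous against WT, DESeq2 passed 29 genes in lung content and 1 in liver content (0 in the main test of each), and Notch2 in lung content was -0.13 by library size and from -0.17 to 0.53 on leaving out 1 library. Apart from tissue, 101 of 1200 member values changed sign on leaving out a library and 41 of 620 under the other alternatives. The causes were not tested. Jag2 in liver content rests on as few as 10 counts a library, which limits its fold changes.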

Other observations

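The mixed library, dead null pups with placebo labelled lung, entered no main comparison by content, though an alternative above counted it as lung content. Its receptors summed to 31.4 CPM per kb, its ligands to 22.3 and its targets to 27.1, each inside the range of the lung-content libraries and above that of the liver-content ones. Jag2 stood at 25.1 CPM there, Notch2 at 75.7, Jag1 at 28.8 and Notch4 at 50.3, all below the lowest lung-content library. Dll4 (40.6 CPM), Hey1 (34.0), Hes1 (34.1), Notch1 (107), Notch3 (85.8) and Dll1 (13.7) lay within the lung-content range.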
